A study of Mus musculus with 2 samples.

Results

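The striated muscle miRNA genes are a set of 9 genes known from skeletal and heart muscle: Mir206, Mir133b, Mir1a-1, Mir1b, Mir133a-1, Mir133a-2, Mir208a, Mir208b and Mir499. They were chosen by name from the 1973 miRNA genes that the count tables list. The rule uses no measured level, but the set was proposed with earlier results of these data known. The libraries are microRNA-seq of RNA under 30 nt from whole kidneys of B6NCrl mouse embryos at 15.5 days (E15.5), males and females mixed, healthy and with no treatment. They form 1 group of 2 libraries, from pools of 78 embryos (replicate 1) and 62 embryos (replicate 2), with 7434182 and 5863293 reads on the own strand of a miRNA gene. No other tissue, age or treatment was measured, so the values describe this organ and the differences between its pools only.

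A microRNA is cut from a hairpin precursor, and the mature strand that is loaded into Argonaute binds mRNAs mainly through its seed, bases 2 to 8 from the 5′ end. The muscle set is known as the myomiRs. miR-1 and miR-206 belong to a seed family that promotes muscle differentiation, and miR-133 is made from the same loci and is known for its part in myoblast proliferation and in the heart. miR-206 is the member known from skeletal muscle and its precursors, while miR-208a, miR-208b and miR-499 come from introns of myosin heavy chain genes. miR-208a lies in Myh6 (alpha myosin of the heart), miR-208b in Myh7 (beta myosin of the fetal heart and slow muscle) and miR-499 in Myh7b.

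RefSeq sequences (GRCm38.p6) were found for the mature strands of 6 of the 9 genes, and those of Mir206, Mir133b, Mir208a, Mir208b and Mir499 are shown here, with miR-1a-1-5p for comparison with miR-206-5p, so that the members can be told apart. Capitals mark the seed.
miR-206-3p: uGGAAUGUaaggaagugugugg
miR-206-5p: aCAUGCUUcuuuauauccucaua
miR-1a-1-5p: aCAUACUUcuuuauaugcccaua
miR-133b-3p: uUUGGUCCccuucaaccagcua
miR-133b-5p: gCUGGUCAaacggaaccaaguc
miR-208a-3p: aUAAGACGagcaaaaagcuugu
miR-208b-3p: aUAAGACGaacaaaagguuugu
miR-499-5p: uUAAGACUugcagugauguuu

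The 3′ strands of miR-208a and miR-208b have the seed UAAGACG in common and differ at 3 of 22 positions, counted from 1 at the 5′ end (G10A, A16G and C18U, with miR-208a first). miR-499-5p has the same bases 2 to 7 and differs from miR-208a-3p at the last base of the seed (G8U). Over 21 positions, miR-499-5p differs from miR-208a-3p at 9 and from miR-208b-3p at 11. miR-206-5p and miR-1a-1-5p differ at 3 of 23 positions (G5A, C17G and U19C, with miR-206 first), the first of them inside the seed. In the RefSeq table of 1738 mature strands, the seed GGAAUGU of miR-206-3p also occurred in mature strands of Mir6349 and Mir6382, which had 0 reads. The 3′ strand of miR-1a and the mature strands of miR-1b were not found in that table. The seed of miR-206-3p was therefore not compared with theirs, and the differences from miR-1a-1-5p concern the 5′ strands only. The hairpin of Mir206, the gene that led the set, follows with both mature strands in capitals.
Mir206 hairpin: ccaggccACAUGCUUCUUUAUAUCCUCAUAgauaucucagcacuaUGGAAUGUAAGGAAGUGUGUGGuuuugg

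Positions are those of GENCODE M21 on mm10. Mir206 (ENSMUSG00000065559.1) lies at chr1:20679010-20679082 on the plus strand, and Mir133b (ENSMUSG00000065480.1) lies downstream at chr1:20682769-20682887, with 3686 bases between them. Both overlap exons of the long noncoding RNA gene Gm28653 on the same strand. Mir208a (chr14:54949060-54949142, minus strand) and Mir208b (chr14:54975700-54975776, minus strand) lie in introns of Myh6 and Myh7, 26557 bases apart. Mir499 (chr2:155622880-155622958, plus strand) lies in an intron of Myh7b. Mir1a-1 (chr2:180389048-180389124) and Mir133a-2 (chr2:180398379-180398482) are intergenic on the plus strand, 9254 bases apart. Mir1b lies in an intron of Mib1 on its strand, and Mir133a-1 in an intron of its host gene Mir133a-1hg, opposite to Mib1.

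Mir206 carried nearly all reads of the set. It had 7129 reads in replicate 1 and 3862 in replicate 2, which is 959 CPM (reads per 1000000 own-strand miRNA gene reads; 95% exact binomial interval 937 to 981) against 659 CPM (638 to 679.8). The libraries did not overlap within counting error, and replicate 1 was the higher. Mir206 thus made up 93.3% of the set's reads in replicate 1 (92.8 to 93.9) and 93.8% in replicate 2 (93.0 to 94.5). Its share of the set moved by less than its counting interval, while its level differed beyond it. In pools of whole organs, the number of cells that hold Mir206 and its RNA per cell cannot be told apart. Which cells the reads came from, and the cause of the gap between the pools, were not tested. By mean level it stood at rank 90 of the 1973 genes, at rank 82 in replicate 1 and 94 in replicate 2. The other 8 members together had 509 and 256 reads, or 68.5 and 43.7 CPM.

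The genes of the set numbered as miR-1 were at or near 0, and Mir1a-2 was not found in the counts under that name. Mir1b had 7 reads in replicate 1 and 13 in replicate 2, or 0.942 CPM (0.379 to 1.94) against 2.22 CPM (1.18 to 3.79). These intervals overlap. Mir1b lies on the strand opposite to Mir1a-2, and no mature sequence of it was compared here. Mir1a-1 had 0 reads in both libraries, where a count of 0 allows up to 3 reads (0.404 CPM in replicate 1, 0.512 CPM in replicate 2). All intervals and limits cover counting error only, since PCR copies of a molecule are not told apart.

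The miR-133 family was low and uneven between the pools. Mir133b had 91 reads (12.2 CPM, 9.86 to 15.0) in replicate 1 and 14 reads (2.39 CPM, 1.31 to 4.01) in replicate 2. Replicate 1 lay above replicate 2 with no overlap of the intervals. Mir133a-1 and Mir133a-2 had 0 reads in both libraries, with the same limits as Mir1a-1.

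The myosin-hosted genes were present at 30.9 CPM or less. Mir208b had 230 reads (30.9 CPM, 27.1 to 35.2) in replicate 1 and 106 reads (18.1 CPM, 14.8 to 21.9) in replicate 2. Mir499 had 160 reads (21.5 CPM, 18.3 to 25.1) and 108 reads (18.4 CPM, 15.1 to 22.2). Mir208b was higher in replicate 1 beyond its counting interval, while the intervals of Mir499 overlap. Mir208a, from the alpha myosin gene, had 21 reads (2.82 CPM, 1.75 to 4.32) and 15 reads (2.56 CPM, 1.43 to 4.22), at nearly the same level in both pools. Of the reads of both miR-208 genes, Mir208b, from the beta myosin gene, held 91.6% (87.5 to 94.7) in replicate 1 and 87.6% (80.4 to 92.9) in replicate 2. The 3 myosin-hosted genes together had 55.3 and 39.1 CPM.

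The order of the levels was therefore Mir206, then Mir208b and Mir499, then Mir133b, Mir208a and Mir1b. The level of Mir206 was 31.0 times that of Mir208b in replicate 1, against 36.4 times in replicate 2. Mir208b and Mir499 do not differ beyond the spread of the libraries, at a ratio of 1.44 in replicate 1 and 0.981 in replicate 2. Mir133b and Mir208a likewise overlap, at ratios of 4.33 and 0.933. Mir208a lay above Mir1b in both libraries, but the intervals of these genes overlap. No scaling by gene length was applied, on the assumption that a read spans a whole mature strand. Read lengths were not examined. How well each sequence was captured in the library was not measured.

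**Figure D1:**
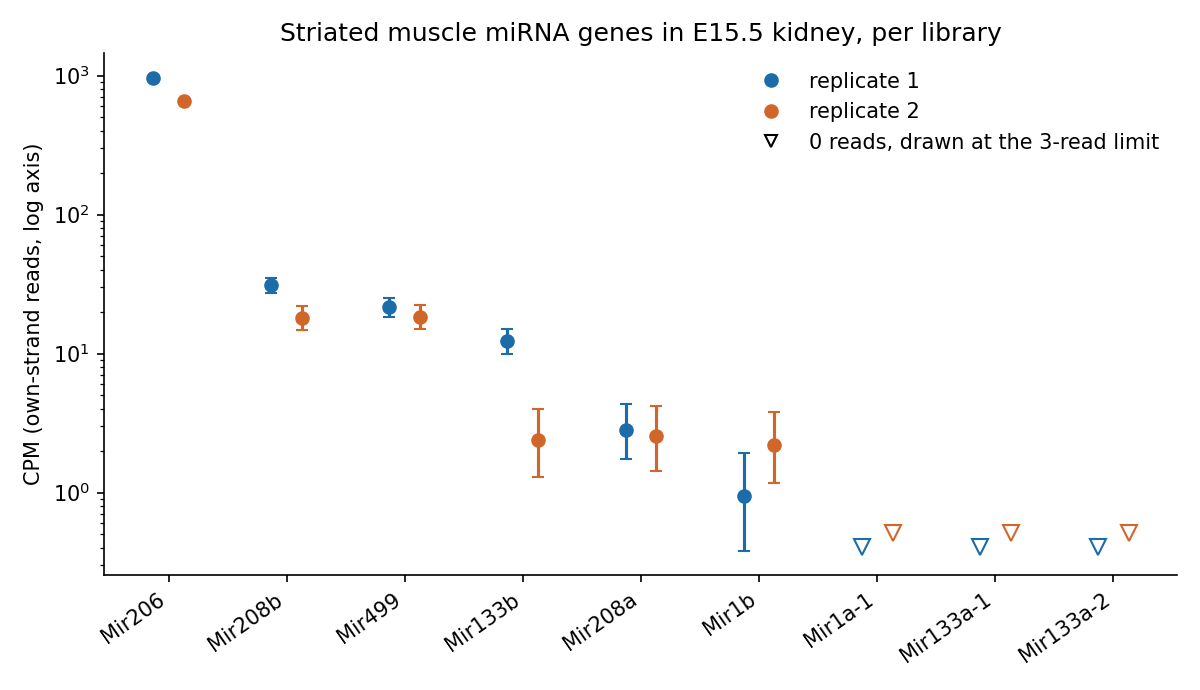
Level of each striated muscle miRNA gene in CPM on a log axis, with circles for each library (replicate 1 blue, replicate 2 orange), bars for the 95% exact binomial interval and open triangles at the 3-read limit for genes with 0 reads. Mir206 sits at 959 and 659 CPM, above every other member by 31.0 times or more, and Mir133b shows the widest gap between the libraries.

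Of the 9 genes, 5 reached 1 CPM in both libraries (Mir206, Mir208b, Mir499, Mir133b and Mir208a), and Mir1b reached it in replicate 2 only. Among all 1973 genes, 394 (19.97%) reached 1 CPM in both libraries. Only Mir206 was above 100 CPM, a level that 173 genes reached. The 3 members with no read were Mir1a-1, Mir133a-1 and Mir133a-2.

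All 3 genes with no read share a stretch of at least 20 nt with another miRNA gene in GENCODE M21. Mir1a-1 shares 28 nt with Mir1a-2, a gene not found in the counts under that name, and Mir133a-1 shares 31 nt with Mir133a-2. Mir133b shares 21 nt with Mir133a-2, in 2 of the 100 windows of 20 nt along its hairpin. Its mature strands are 22 nt long, so a stretch of 21 nt can cover most of one. Where the stretch lies was not determined. The other 5 members, Mir206, Mir1b, Mir208a, Mir208b and Mir499, share no such stretch, and each of the 5 had reads in both libraries. The authors set apart reads that matched several loci, and their share of the reads was 27.1% (replicate 1) and 26.6% (replicate 2). The files do not say which genes those reads match, so a count of 0 here does not show that miR-1a or miR-133a was absent, and the Mir133b count can be too low. For the same reason the lead of Mir206 is a statement about these counts, not about the mature strands of the whole family.

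Between the pools, 3 of the 6 members that averaged 10 or more reads differed (50%). The test was exact binomial and two-sided, given the library totals, with p-values adjusted by Benjamini-Hochberg over all 378 genes at that level. Across all 378 genes 55.8% differed, so the members differed about as often as other genes. This test covers counting error and compares these 2 libraries, not conditions. All 3 were lower in replicate 2, against 15.6% of all tested genes lower and 40.2% higher. Of the 3, Mir133b alone was lower by at least 2-fold, as was 0.265% of all tested genes, which is Mir133b itself. Scaling moved that background: 111 genes were lower and 109 higher with TMM scaling, and 120 lower and 103 higher with DESeq2 size factors, against 59 and 152 with library totals. The same number of members, 3 lower and 0 higher, was called under either scaling.

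Mir206 was lower in replicate 2 by 1.46-fold, a log2 ratio of -0.54 (interval -0.60 to -0.49, adjusted p = 2.65e-80). Mir208b was lower by 1.71-fold, at -0.78 (-1.12 to -0.44, adjusted p = 7.43e-06), and Mir133b by 5.13-fold, at -2.36 (-3.29 to -1.54, adjusted p = 6.32e-11). Mir499 at -0.22 (-0.59 to 0.14, adjusted p = 0.305), Mir208a at -0.14 (-1.20 to 0.88, adjusted p = 0.896) and Mir1b at 1.24 (-0.20 to 2.80, adjusted p = 0.113) did not pass the test. The intervals of Mir499 and Mir208a include the log2 ratio of Mir206, so they do not show that these genes were level between the pools. The median log2 ratio was -0.38 over the 6 members and 0.15 over all 378 genes. Relative to that median of all genes, Mir206 stood at -0.69, Mir208b at -0.92 and Mir133b at -2.51.

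The median size of the log2 ratio was 0.28 over all 378 genes, and edgeR put the biological coefficient of variation at 0.246. Among the 156 genes that averaged 1000 reads or more, Mir181a-1 and Mir192 had a lower log2 ratio than Mir206, and 16 genes were higher in replicate 2 by a larger log2 ratio than its size of 0.54. With library totals, differences of this size were thus found in 18 abundant genes, most of them in the opposite direction. TMM and DESeq2 scaling moved the median log2 ratio of all genes by -0.13 and -0.16, and Mir206 to -0.67 and -0.70. The count was not repeated under them, so its size and main direction hold for library totals only. Mir133b had the lowest log2 ratio of all 378 genes, and 11 genes lay below Mir208b. With 2 pools, nothing in the design separates a feature of the organ from the make-up of a single pool.

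**Figure D2:**
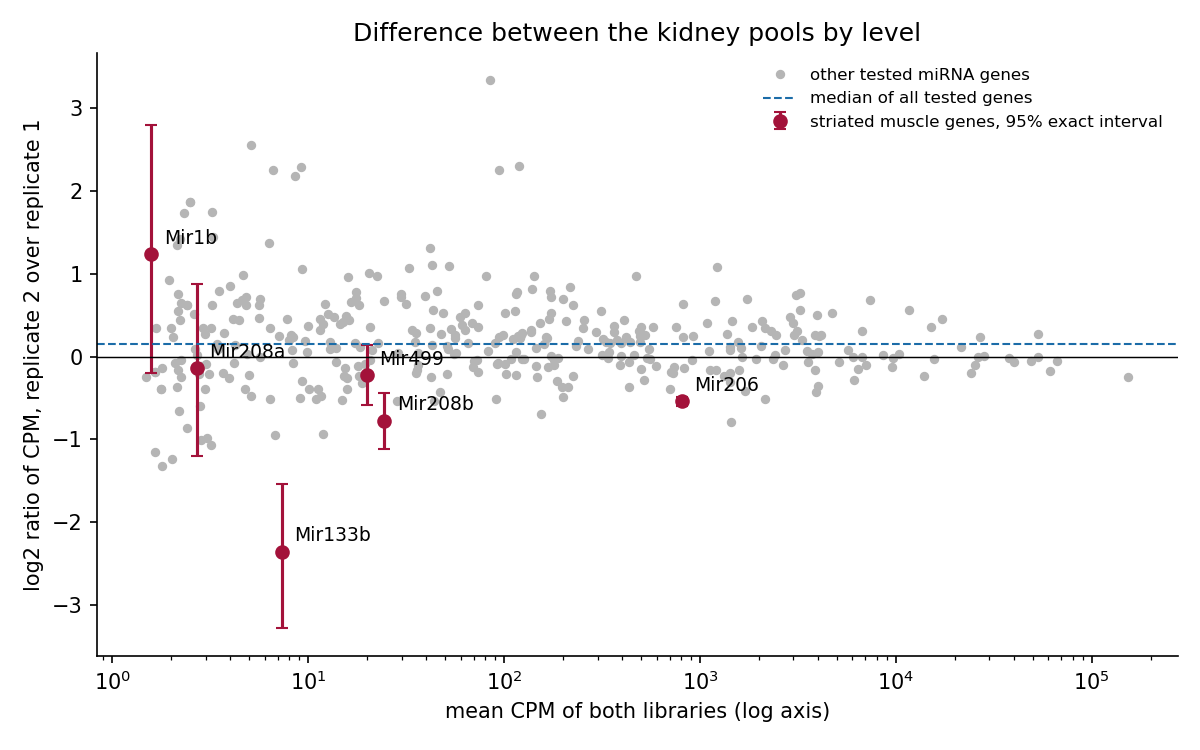
Log2 ratio of CPM, replicate 2 over replicate 1, against the mean CPM on a log axis, with grey points for other tested genes, red points with 95% exact intervals for the 6 striated muscle genes and a dashed line at the median of all 378 genes (0.15). Mir206, Mir133b, Mir208a, Mir208b and Mir499 lie below that line, Mir133b lowest at -2.36, and Mir1b lies above it with an interval that includes 0.

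The ratio of one member to another does not depend on the library totals, so all 15 pairs of the 6 detected members were compared between the pools (two-sided Fisher's exact test, adjusted over the 15 pairs). The test compares the 2 libraries and covers counting error only. The ratio of Mir206 to Mir208b was 31.0 in replicate 1 and 36.4 in replicate 2, and the log2 change of 0.23 (interval -0.11 to 0.58) did not pass (adjusted p = 0.228). Mir206 against Mir499 changed by -0.32 (-0.68 to 0.05, adjusted p = 0.138), and against Mir208a by -0.40 (-1.43 to 0.66, adjusted p = 0.519). These intervals allow changes of up to 1.43 on the log2 scale, so they do not show that the genes moved alike.

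The ratio of Mir133b to each other detected member changed between the pools beyond counting error. All 5 pairs that include it passed, with the ratio of Mir206 to Mir133b at 78.3 in replicate 1 and 276 in replicate 2 (log2 change 1.82, 0.99 to 2.75, adjusted p = 6.23e-06). Its ratio to Mir499 was 0.569 in replicate 1 and 0.130 in replicate 2 (log2 change -2.13, -3.13 to -1.22, adjusted p = 4.87e-06). Mir133b shares 21 nt with Mir133a-2, and its 14 reads in replicate 2 set the width of these intervals. The other pairs that passed were Mir1b against Mir206 (adjusted p = 0.0178), Mir1b against Mir208b (adjusted p = 0.00800) and Mir208b against Mir499 (log2 change -0.55, -1.05 to -0.05, adjusted p = 0.0494). The 5 pairs with Mir133b all rest on its same 91 and 14 reads, so they are not separate results. How often pairs of other genes pass was not computed. In the binomial test, 55.8% of all 378 tested genes differed between the pools.

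Mir206 and Mir133b are neighbours on 1 strand and are annotated in exons of the same noncoding gene, and neighbouring miRNA genes can come from a shared transcript. There were 91 other pairs of consecutive miRNA genes on 1 strand within 10 kb in which both averaged 10 reads or more. The size of the log2 ratio within a pair had a median of 2.96 over these pairs, and 5 of them reached the 7.20 of Mir206 and Mir133b. The log2 change of that ratio between the libraries had a median of 0.32 and a largest value of 1.42 over the other pairs, below the 1.82 of Mir206 and Mir133b. The interval of the 1.82 (0.99 to 2.75) includes that largest value. Reads of Mir133b that also match Mir133a-2 can be missing from its count, and both the 7.20 and the 1.82 rest on that count. Since Mir133b already had the lowest ratio between the pools and the pair was looked at for that reason, these values describe the pair and do not test it.

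**Figure D3:**
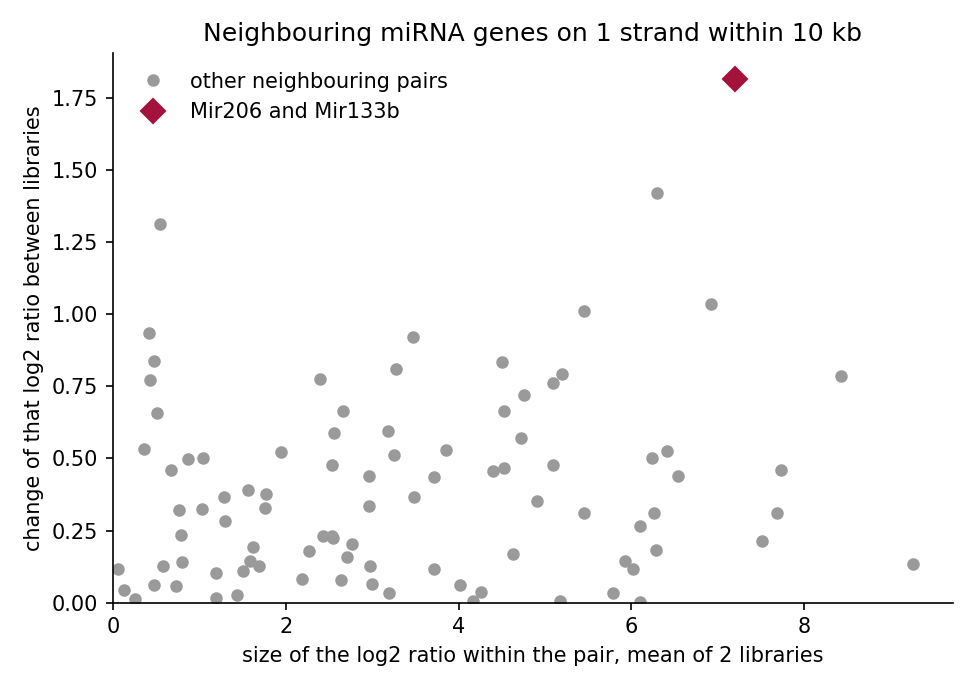
Each point is a pair of consecutive miRNA genes on 1 strand within 10 kb. The horizontal axis gives the size of the log2 ratio of their counts (mean of the libraries) and the vertical axis the change of that log2 ratio between the libraries. The pair of Mir206 and Mir133b (red diamond) lies at 7.20 and 1.82, above all 91 other pairs on the vertical axis.

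Genes with a level and a difference most like Mir206 were sought by distance in log2(CPM + 1) over the 2 libraries. The 3 nearest were Mir188 (798 and 606 CPM, distance 0.29), Mir96 (866 and 789 CPM, distance 0.30) and Mir200a (775 and 674 CPM, distance 0.31). The nearest to Mir208b was Mir3105 (33.6 and 23.2 CPM, distance 0.36), and the nearest to Mir499 was Mir6539 (20.2 and 18.9 CPM, distance 0.10). With only 2 libraries, this likeness is in level and in 1 ratio.

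Mir143 and Mir145a, known from smooth muscle, which is a normal part of the ureter and vessels, had a summed level of 24953 and 29366 CPM, against 1027 and 702 CPM for the striated set, a ratio of means of 31.4. That ratio rests on Mir143, since Mir145a stood at 343 CPM by mean, below Mir206 at 809 CPM. Levels of different miRNAs do not give the amounts of these tissues. Mir143 was higher in replicate 2 (24616 and 29016 CPM, log2 ratio 0.24), opposite in direction to Mir206, and Mir145a did not pass the test (337 and 349.97 CPM, adjusted p = 0.280).

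Another 24 miRNA genes have a known role in muscle cells but wide expression, among them Mir322 and Mir503 (cell cycle exit of myoblasts) and Mir31 (repression of Myf5). They summed to 59160 and 61832 CPM, and 21 of the 24 reached 1 CPM in both libraries. Of the 21 with enough counts, 9 were higher and 3 lower in replicate 2, near the 40.2% higher and 15.6% lower of all tested genes, and the median log2 ratio of 0.15 was also that of all genes. The 3 lower genes were Mir181a-1 at -0.79, Mir31 at -0.21 and Mir322 at -0.07. The names Mir24-1 and Mir486a matched no gene in the counts, so they are not in these sums. A gene named Mir486 was in the counts but also stayed outside the list. It was higher in replicate 2 (12.9 and 22.2 CPM, log2 ratio 0.78, adjusted p = 1.32e-04 in the same binomial test).

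The label of the tissue was checked against kidney lists. The Hox-cluster list of trunk position held 24.4% of counts, the nephron list 3.31% and the epithelial list 2.31%, against 0.0865% for the striated muscle set. The adult kidney list, at 0.0441%, lay below the striated muscle set. Lists for other tissues were of the same order as striated muscle: endocrine and pancreas at 1346 and 1977 CPM, neural at 595 and 751 CPM, leukocyte at 619 and 700.1 CPM, liver (Mir122) at 319 and 628 CPM, and erythroid at 339 and 466 CPM. All 5 of these sums were higher in replicate 2, where the striated muscle sum was lower. By mean level, the neural sum was led by Mir132 (396 CPM) and Mir137 (172 CPM). Its other members were Mir128-1 at 73.9 CPM, Mir128-2 at 15.8, Mir129-1 at 8.4, Mir129-2 at 5.09 and Mir9-3 at 1.79 CPM, and Mir9-2 with 0 reads. Mir9-1, Mir124-1, Mir124-2 and Mir124-3 were not found under these names, nor was Mir142 of the leukocyte list. The endocrine and pancreas sum was led by Mir375 (1460 CPM). The adult kidney list (516 and 366 CPM), the epithelial list (24821 and 21320 CPM) and the Hox-cluster list were lower in replicate 2, as was striated muscle. The nephron list was higher in replicate 2 (27537 and 38639 CPM), so the kidney lists did not move in 1 direction. The part of other tissues in the striated muscle counts was not tested.

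**Figure D4:**
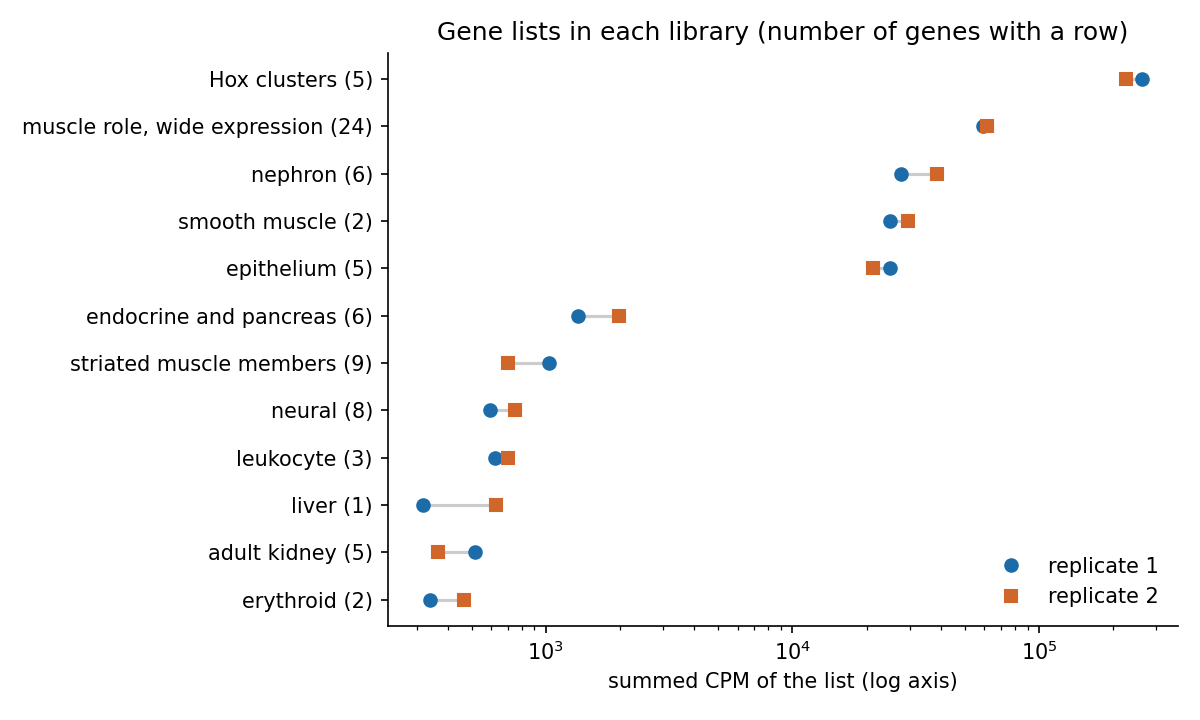
Summed CPM of each gene list on a log axis, with blue circles for replicate 1 and orange squares for replicate 2. The number in brackets is that of the genes listed in the count tables, among them genes with 0 reads. The striated muscle genes (1027 and 702 CPM) lie between the neural and the endocrine lists by mean and to the left of the pair of Mir143 and Mir145a, and the lists of other tissues have the orange square on the right.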

How the data were processed

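The authors deposited raw read counts per miRNA gene (both strands, own strand, opposite strand), made from alignments to mm10 with GENCODE M4, per the deposited notes. For the aligner and the counter, a name and version were not given in the sources used here. Own-strand counts were divided by their sum over genes (CPM). Lines outside genes stayed out of that sum, and own-strand gene reads were 51.6% and 48.4% of all reads in the files. Names, positions and shared stretches came from GENCODE M21, with 1894 of 1973 identifiers matched, and mature sequences from RefSeq (GRCm38.p6).

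The members and lists were chosen with earlier results of these data known, and the tests of pairs of members and of neighbouring genes were chosen after the values were seen. The text names all 9 members, the nearest genes by distance (up to 3 for a member), members of the fixed lists, and 2 abundant genes with a lower ratio than Mir206, chosen after their values were seen. Intervals are 95% exact (Clopper-Pearson) binomial, and conditional exact for ratios of pairs. edgeR 4.0.16 gave TMM factors and the dispersion, and DESeq2 1.42.0 size factors (R 4.3.3). Python 3.11.15, scipy 1.17.1 and pandas 2.3.3 did the rest, with figures by matplotlib 3.10.9. The binomial test was tried on simulated libraries with counting error only, scored on calls of at least 2-fold. That simulation does not cover variation between pools or calls on adjusted p alone. Nothing in the labels beyond the replicate number and the number of embryos pooled separates the pools, which are labelled as biological replicates.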

Additional observations from a re-analysis of the deposited data

Results flagged for a closer look

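Reads on the strand opposite to Mir1b numbered 4 in replicate 2, above the 3 reads that a count of 0 allows, and 1 in replicate 1. They lie outside the own-strand counts used for every level, and no control sample exists. Mir1b overlaps Mir1a-2 on the other strand, a gene not found in the counts under that name. The other 8 members had 0 reads on the opposite strand in both libraries.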

How the results depend on the processing

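With the total of all reads in the file in place of gene reads, the summed level was 435 CPM, Mir206 407, Mir208b 12.4 and Mir499 10.01 CPM, because the total is larger. Without Mir10a in the total, Mir499 stood at 23.6 CPM. At a limit of 10 CPM, 3 members counted as detected, and at least 2-fold between libraries left 1 member, Mir133b. Leaving out each replicate, which with 2 libraries gives the value of the other, gave 702 to 1027 CPM for the sum, 2.39 to 12.2 CPM for Mir133b and 5 to 6 members detected. TMM and DESeq2 scaling moved the median log2 ratio of all genes by -0.13 and -0.16, and Mir206 to -0.67 and -0.70. Mir499 stayed short of the threshold (adjusted p = 0.0540 with DESeq2 size factors, range 0.0540 to 0.442 over its alternatives). Counting both strands brought Mir1b past the threshold (log2 ratio 1.43, adjusted p = 0.0435). Without genes that share sequence, the median ratio of the members was -0.22. Leave-one-out values aside, 68 of 76 alternative values were judged unchanged. Levels and shares had to stay within the SD of the libraries, and the median ratio within a spread taken from the members' intervals. Ratios of single genes had to keep their sign and side of the threshold. Counts of members had only to stay within a set fold, so 4 members called with both strands, against 3, passed as unchanged. Mir133b at 3.73 CPM with all reads did too, since its SD was 6.97 CPM. No paired analysis was possible because there is 1 group. Counts of 21 reads or fewer limit Mir208a and Mir1b.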
